A study of Mus musculus with 16 samples.

Results

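Transcript levels of 10 Bcl2 family apoptosis regulators were followed in B16F10 allograft tumors. The members were taken by gene symbol from the 45777 genes of the deposited table: the anti-apoptotic genes Bcl2, Bcl2l1 and Mcl1, the effectors Bax and Bak1, and the BH3-only genes Bid, Bbc3, Pmaip1, Bcl2l11 and Bad. B16F10 is a mouse melanoma line, injected under the skin of syngeneic hosts, and bulk poly(A) RNA of the tumors was sequenced. There were 4 groups of 4 tumors. Lean tumors grew in C57BL/6J mice and obese tumors in leptin-deficient C57BL/6J-ob/ob mice, and each host was sampled pre-therapy and after chemotherapy with etoposide (ETS), a topoisomerase II inhibitor that breaks DNA. Leptin deficiency is a single genetic route to obesity and removes a hormone that also acts on immune cells, so that obesity and absence of leptin cannot be told apart in these hosts. All tumors came from the same line and held host cells as well as tumor cells. The untreated tumors are labeled as controls, and the paper describes them as taken before chemotherapy. No vehicle group sampled at the same time as the ETS tumors is described for these libraries. Drug and time of growth therefore cannot be told apart in the comparisons with ETS.

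Bcl2 family proteins decide whether the outer mitochondrial membrane of a cell is opened. Bax and Bak1 form the pores, the anti-apoptotic proteins hold them in check, and the BH3-only proteins either neutralise the anti-apoptotic members or activate the effectors directly. DNA damage acts on the family partly through Trp53, which switches on genes such as Bbc3 (PUMA), Pmaip1 (NOXA) and Bax, while much of the control of Mcl1, Bid and Bad lies at the protein level, which RNA does not show.

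Libraries held 47199949 to 61655287 counts. The 10 melanocyte marker transcripts were detected in every tumor, with summed levels between 9364 and 22698 TPM (transcript abundance corrected for length and depth), and stromal and immune markers were present at lower levels. The obese ETS tumor 2 stood apart by keratinocyte markers (110.01 TPM, against at most 3.57 in any other tumor) and skeletal muscle markers (374 TPM, against 196 to 267 in 3 lean tumors and at most 56.5 in the rest), and the obese ETS tumor 4 by fibroblast markers (2172 TPM, against 253 to 578 in the other obese ETS tumors). The labels do not say whether the 4 tumors of a group came from separate mice, so p-values measure the spread between these samples. In bulk tumors, a change in the number of cells of a type and a change in RNA per cell cannot be told apart. Levels of one gene across tumors are given as CPM (read counts per library total) scaled by TMM, a normalisation that aligns the bulk of genes between libraries, and levels of different genes are compared as TPM. A gene was called where edgeR's quasi-likelihood test, run on the 16209 genes with no count of 0, gave a Benjamini-Hochberg adjusted p under 0.05. Of the members, 9 were in this test. Pmaip1 was kept out by a count of 0 in the obese pre-therapy tumor 1 and was fitted without that exclusion.

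The members spanned a wide range of transcript levels. Bax was the most abundant, with group means of 221 to 385 TPM, followed by Bak1 with 147 to 211 TPM and Mcl1 with 106 to 155 TPM. Bcl2l1 lay between 36.7 and 85.8 TPM. Among the BH3-only genes, Bad (35.2 to 47.6 TPM) and Bid (20.6 to 49.7 TPM) were higher than Bbc3 (6.13 to 14.7 TPM) and Bcl2l11 (4.22 to 7.26 TPM). Bcl2 itself, the founding member, reached only 8.43 to 12.2 TPM, and Pmaip1 0.216 to 1.29 TPM.

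**Figure D1:**
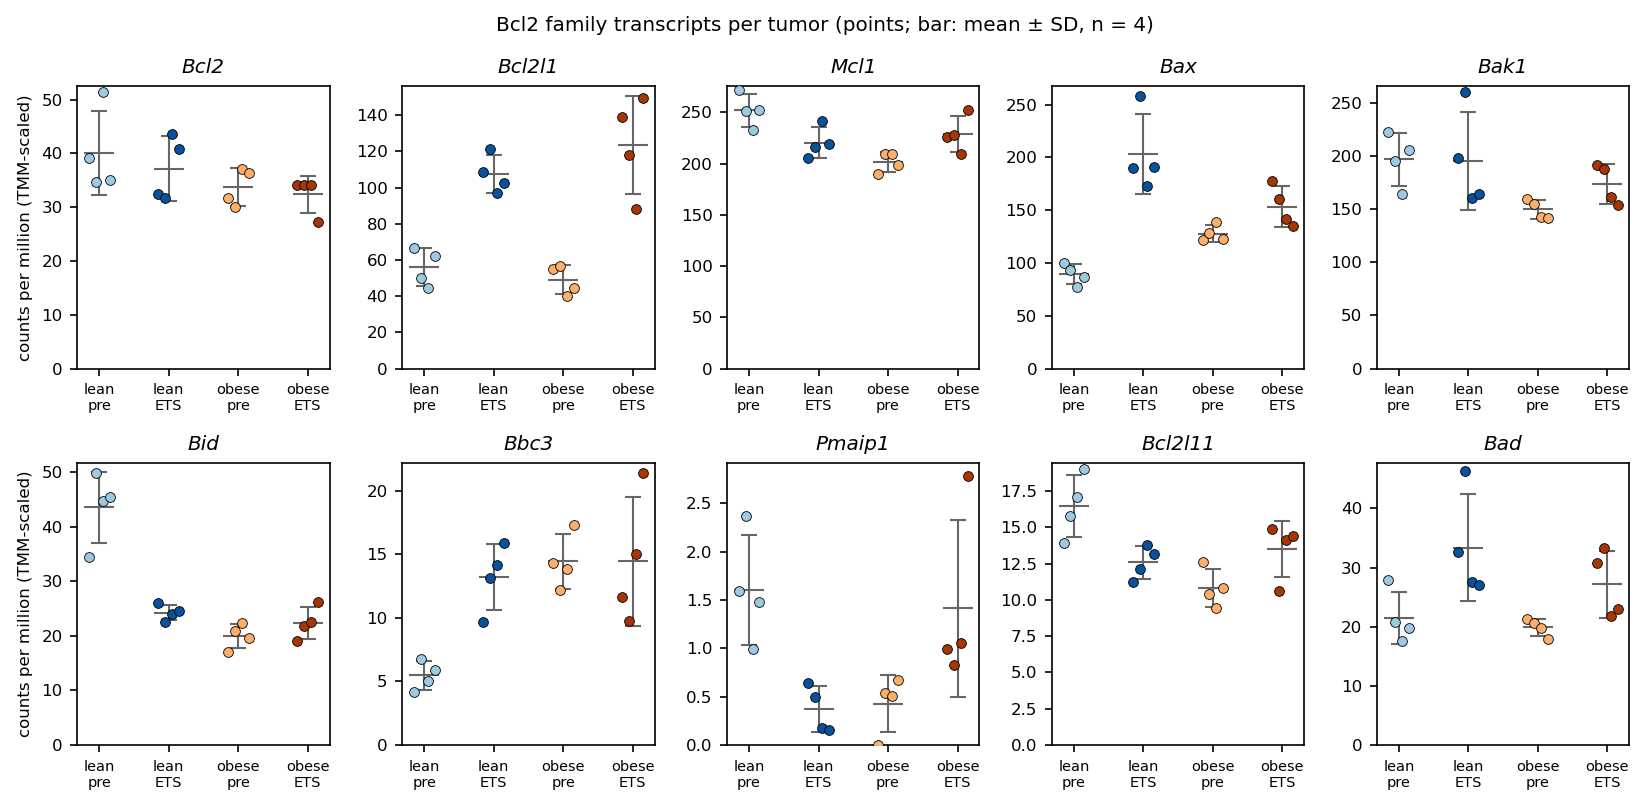
Level of each of the 10 members in each of the 16 tumors, as TMM-scaled CPM (y axis, starting at 0, with its own scale in each panel) by group (x axis); points are tumors and bars the mean ± SD of 4. Bcl2l1 was raised in both ETS groups, whereas the lean pre-therapy group alone lay apart from the other groups for Bid (high) and Bbc3 (low).

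Promoter windows from 250 bases before to 50 bases after each annotated start (RefSeq, GRCm38.p6) were searched on both strands. There were 15 windows for 9 members and none for Pmaip1. The p53 half-site, a decamer, was searched by its usual consensus. It was found in 1 of the 15 member windows, that of Bax, and in 8.36% of the 32851 windows of all genes. Pairs of half-sites, as in a full p53 site, were not searched for. The FOXO motif GTAAACA, bound by the Foxo factors that are known to act on BH3-only genes, was found in 2 member windows, 1 of Bcl2l11 and 1 of Bbc3, and in 3.65% of all windows. The interferon motifs (TTTC repeated after 2 bases of any kind, and TTCNNNGAA) and the amino acid stress motif TGATGNAA were in none of the member windows, against 3.44%, 8.3% and 3.97% of all windows. The stretches with a match are printed 5′ to 3′ on the strand of the gene, all before the start site, with the matched letters in capitals.
Bax (chr7:45467065-45467124, minus strand, p53 decamer beginning 201 bases before the start): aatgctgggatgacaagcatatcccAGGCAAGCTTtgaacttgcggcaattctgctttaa
Bcl2l11 (chr2:128125788-128125842, plus strand, FOXO motif beginning 227 bases before the start): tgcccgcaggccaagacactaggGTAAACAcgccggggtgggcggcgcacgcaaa
Bbc3 (chr7:16310069-16310125, plus strand, FOXO motif in reverse orientation beginning 167 bases before 1 of its annotated starts and within the span of the gene): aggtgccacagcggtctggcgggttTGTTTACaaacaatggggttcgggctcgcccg
The bases just after the start site were found in 5 annotated transcripts for Bcl2l11, 1 for Bax and 0 for Bbc3, so that the Bbc3 start is uncertain. A match describes letters only. Binding was not measured in this study.

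Among the anti-apoptotic members, Bcl2l1, which encodes Bcl-xL, was raised after ETS in both hosts. Bcl2l1 (chr2:152758732-152833803, minus strand) measured 66.8, 50.2, 44.3 and 62.4 CPM in the lean pre-therapy tumors and 109, 121, 96.9 and 103 CPM in the lean ETS tumors. In obese hosts it measured 54.8, 56.9, 40.0 and 44.5 CPM pre-therapy and 139, 118, 88.1 and 149 CPM after ETS. Every ETS tumor lay above every pre-therapy tumor, whichever the host. The rise was 1.92-fold in lean tumors (log2 fold change 0.94 ± 0.17 SE, adjusted p = 0.000528) and 2.52-fold in obese tumors (1.33 ± 0.17, adjusted p = 6.38e-05). The difference between these responses did not pass the test (log2 -0.39 ± 0.24, adjusted p = 0.284; -0.63 and adjusted p = 0.0496 on log2(TPM + 0.1)), nor did the host difference before therapy (-0.19 ± 0.17) or after ETS (0.20 ± 0.17).

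Mcl1 (chr3:95656944-95663179, plus strand), a short-lived guardian of mitochondria, was the most abundant anti-apoptotic transcript. It measured 272, 251, 233 and 252 CPM in lean pre-therapy tumors and 189, 209, 209 and 198 CPM in obese pre-therapy tumors, with no overlap. After ETS the lean tumors measured 205, 216, 241 and 219 CPM and the obese tumors 226, 228, 209.7 and 253 CPM. The obese level before therapy was 1.25-fold lower than the lean level (log2 -0.32 ± 0.08, adjusted p = 0.00702). Neither the lean change with ETS (-0.19 ± 0.08, adjusted p = 0.0585) nor the obese change (0.19 ± 0.08, adjusted p = 0.0717) passed the test, but their difference did (-0.38 ± 0.11, adjusted p = 0.0298). That last call was near the threshold: it was lost without the lean pre-therapy tumor 2 or 4, the lean ETS tumor 4, or the obese pre-therapy tumor 1 or 4, with adjusted p between 0.0505 and 0.0604, and without both obese ETS tumors 2 and 4 (-0.34, adjusted p = 0.0976) or with genes holding a 0 kept in (adjusted p = 0.0696). The lean decrease in turn passed without the lean pre-therapy tumor 3, the lean ETS tumor 3, or the obese ETS tumor 1 or 4 (adjusted p 0.0296 to 0.0495). It also passed without both obese ETS tumors 2 and 4 (adjusted p = 0.0380). The obese increase passed without the obese ETS tumor 3 (adjusted p = 0.0414). With all tumors, DESeq2 called both the lean decrease (-0.19, adjusted p = 0.0436) and the obese increase (0.19, adjusted p = 0.0395). On log2(TPM + 1) the lean value was -0.56 and was called (adjusted p = 0.000494).

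Bcl2 (chr1:106538176-106714290, minus strand) showed no called difference. Its group means were 40.0 ± 7.82, 37.2 ± 5.97, 33.8 ± 3.47 and 32.4 ± 3.47 CPM (SD, n = 4) in lean pre-therapy, lean ETS, obese pre-therapy and obese ETS tumors, and each group overlapped the next in that order. The log2 change with ETS was -0.11 ± 0.14 for lean and -0.06 ± 0.14 for obese tumors. On log2(TPM + 1), where the median of all genes itself moved by -0.28 in lean tumors, the lean value was -0.41 and just passed (adjusted p = 0.0495).

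The effectors parted from each other. Bax (chr7:45461695-45466903, minus strand) measured 99.7, 93.6, 77.3 and 86.5 CPM in lean pre-therapy tumors and 189.9, 259, 172 and 191 CPM in lean ETS tumors. Obese tumors measured 121, 128, 139 and 123 CPM before therapy and 178, 160.2, 141 and 135 CPM after ETS. The lean groups did not overlap, and the 4 obese pre-therapy tumors lay in the gap between them. Bax rose 2.27-fold in lean tumors (log2 1.19 ± 0.13, adjusted p = 9.47e-06), whereas the obese change was 1.20-fold (0.26 ± 0.12, adjusted p = 0.102). The difference between the responses was called (0.92 ± 0.18, adjusted p = 0.00228), as was the higher Bax level of obese tumors before therapy, at 1.43-fold (0.52 ± 0.12, adjusted p = 0.00637). The obese rise passed the test without the lean ETS tumor 2 (0.27, adjusted p = 0.0341) or the obese ETS tumor 4 (0.33, adjusted p = 0.0418). Bax overlaps exons of Gm45808, a protein-coding gene annotated on the same strand and absent from the deposited counts. Strand cannot separate reads of these genes, and the share of Gm45808 in the Bax counts was not tested.

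Bak1 (chr17:27019812-27028627, minus strand) had no called change with ETS on the CPM scale in lean tumors, with 197 ± 24.8 CPM before and 196 ± 46.2 CPM after (SD, n = 4) and a log2 change of -0.01 ± 0.14. On log2(TPM + 1) the lean change was -0.40 (adjusted p = 0.00272), against the median of -0.28 over all genes. In obese tumors it measured 159.8, 155, 143 and 142 CPM before therapy and 174 ± 18.7 CPM after ETS (log2 0.22 ± 0.14, adjusted p = 0.232). All 4 obese pre-therapy tumors lay below all lean pre-therapy tumors, which ranged from 164 to 223 CPM. This host difference was 1.32-fold and just passed the test (-0.40 ± 0.14, adjusted p = 0.0479). The call was lost when any 1 of 9 tumors was left out (adjusted p 0.0544 to 0.119). These were the lean pre-therapy tumors 1, 2 and 4, all 4 obese pre-therapy tumors, and the obese ETS tumors 2 and 3. It was also lost with edgeR's own filter on low counts (adjusted p = 0.0629).

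**Figure D2:**
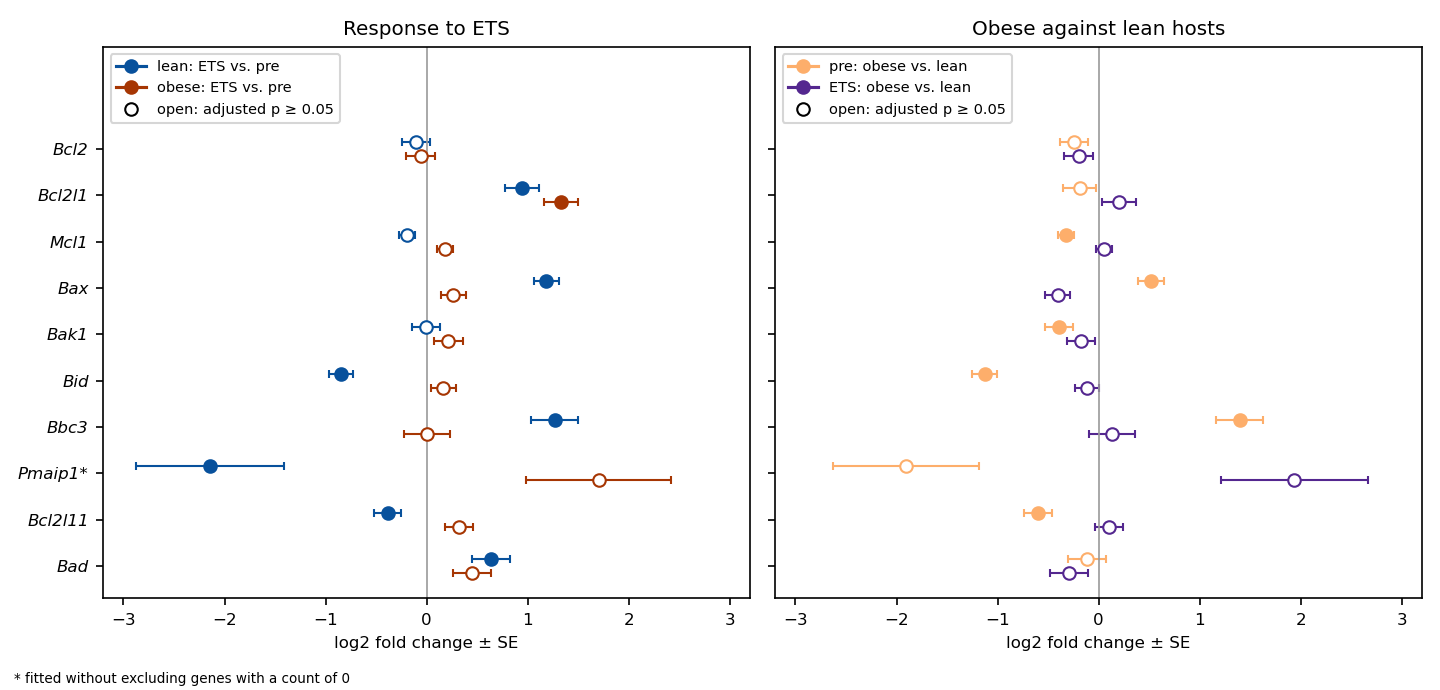
Log2 fold change ± SE (x axis) of each member (y axis) with ETS in lean and obese tumors (left) and between obese and lean tumors before therapy and after ETS (right), from edgeR's quasi-likelihood fit; filled points passed an adjusted p of 0.05 and Pmaip1 comes from the fit without exclusion of genes with a 0. In the left panel Bcl2l1 is filled for both hosts, and in the right panel no point after ETS is filled.

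The BH3-only members moved in opposite directions in lean tumors. Bid (chr6:120893119-120917062, minus strand), which is cut by caspase-8 and links death receptors to mitochondria, measured 34.5, 49.9, 44.7 and 45.4 CPM in lean pre-therapy tumors. It measured 25.96, 22.6, 23.9 and 24.5 CPM in lean ETS, 17.1, 20.8, 22.3 and 19.6 CPM in obese pre-therapy and 19.0, 21.8, 22.5 and 26.3 CPM in obese ETS tumors. The lean pre-therapy group was high and apart from the other groups, and those 3 formed an overlapping order. Bid was 1.80-fold lower after ETS in lean tumors (log2 -0.85 ± 0.12, adjusted p = 0.00011). The obese change was 0.17 ± 0.12 (adjusted p = 0.298), and the difference between the responses was called (-1.01 ± 0.17, adjusted p = 0.00107). Before therapy Bid was 2.18-fold lower in obese than in lean tumors (-1.13 ± 0.12, adjusted p = 1.30e-05).

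Bbc3 (chr7:16308398-16318334, plus strand), which encodes PUMA, gave the mirror image at lower levels. It measured 4.13, 6.79, 5.07 and 5.93 CPM in lean pre-therapy tumors, resting on 249 to 442 counts, and 9.69, 13.1, 14.1 and 15.9 CPM in lean ETS tumors. Obese tumors measured 14.3, 12.2, 13.9 and 17.3 CPM before therapy and 11.6, 9.78, 14.996 and 21.4 CPM after ETS. The lean pre-therapy tumors were all below every other tumor, and the remaining groups overlapped. Bbc3 rose 2.41-fold in lean tumors (log2 1.27 ± 0.23, adjusted p = 0.000646). The obese change was 0.00 ± 0.23 (adjusted p = 0.998), the difference between the responses was 1.27 ± 0.32 (adjusted p = 0.0147), and the level before therapy was 2.63-fold higher in obese tumors (1.40 ± 0.23, adjusted p = 0.000515). On the TPM scale the difference between the responses was 0.94 and was not called (adjusted p = 0.0935).

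Bcl2l11 (chr2:128126038-128162547, plus strand), which encodes BIM, a BH3-only activator induced by growth factor loss, followed the direction of Bid with smaller steps. It measured 13.9, 15.8, 17.1 and 19.0 CPM in lean pre-therapy, 11.2, 12.1, 13.8 and 13.2 CPM in lean ETS, 12.6, 10.4, 9.44 and 10.8 CPM in obese pre-therapy and 14.9, 10.6, 14.2 and 14.4 CPM in obese ETS tumors. The obese pre-therapy tumors all lay below the lean pre-therapy tumors, and the lean ETS tumors lay just below the lean pre-therapy tumors. The lean decrease was 1.31-fold (log2 -0.39 ± 0.14, adjusted p = 0.0315), the obese change 0.32 ± 0.14 (adjusted p = 0.0743), and the difference between them -0.71 ± 0.19 (adjusted p = 0.0209). The lean call was lost without the lean pre-therapy tumor 3 or 4 or the lean ETS tumor 1 or 2 (adjusted p 0.0713 to 0.102) and with genes holding a 0 kept in (adjusted p = 0.0566), and the call of the difference without the lean pre-therapy tumor 4 (adjusted p = 0.0515). The obese increase passed without the obese pre-therapy tumor 1 or the obese ETS tumor 2 (adjusted p 0.0236 to 0.0426). Before therapy Bcl2l11 was 1.52-fold lower in obese tumors (-0.60 ± 0.14, adjusted p = 0.00451).

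Bad (chr19:6941861-6951905, plus strand), which binds Bcl-xL when survival kinases are off, rose 1.55-fold with ETS in lean tumors (log2 0.63 ± 0.19, adjusted p = 0.0130). Its lean pre-therapy levels were 27.8, 20.7, 17.5 and 19.8 CPM and its lean ETS levels 32.6, 46.3, 27.5 and 27.0 CPM, so that the lowest ETS tumors lay under the highest pre-therapy tumor. Without the lean ETS tumor 2 the change was 0.43 and was not called (adjusted p = 0.0547), nor was it on log2(TPM + 1), at 0.26 (adjusted p = 0.111). In obese tumors Bad went from 19.9 ± 1.47 to 27.1 ± 5.68 CPM (SD, n = 4) without overlap, and the log2 change of 0.45 ± 0.19 did not pass (adjusted p = 0.067). It passed without the lean pre-therapy tumor 1, the lean ETS tumor 2, or the obese ETS tumor 3 or 4 (adjusted p 0.0285 to 0.04995). Bad overlaps exons of Gpr137, a gene on the opposite strand with up to 3265 counts. The library kit keeps strand, but whether the counting used it is not given in the sources used here, so the share of each gene in these reads is uncertain.

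Pmaip1, on chromosome 18, encodes NOXA, which neutralises Mcl1. It was near the detection limit and ran against Bbc3. Its counts were 96, 154, 64 and 93 in lean pre-therapy tumors and 36, 25, 10 and 9 in lean ETS tumors. Obese pre-therapy tumors held 0, 27, 30 and 38 counts, and obese ETS tumors 55, 40, 66 and 159. The count of 0 allows a level of up to 0.062 CPM. Pmaip1 fell by 2.14 on the log2 scale in lean tumors (SE 0.73, adjusted p = 0.0436), while the obese change was 1.70 ± 0.72 (adjusted p = 0.112), and the difference of -3.84 ± 1.02 was called (adjusted p = 0.026). After ETS the obese level was above the lean level by 1.94 on the log2 scale, which did not pass with genes holding a 0 kept in (adjusted p = 0.178) or with edgeR's own filter on low counts (adjusted p = 0.123). It passed when the obese pre-therapy tumor 1 was left out, which also let Pmaip1 into the smaller set of genes with no 0 (adjusted p = 0.0399).

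Of the 9 members tested, 6 were called with ETS in lean tumors, where 43.8% of all tested genes were called. Bcl2l1, Bax, Bbc3 and Bad were higher (21.0% of genes) and Bid and Bcl2l11 lower (22.8%), and 5 members had groups that did not overlap, where this held for 41.2% of genes. In obese tumors 1 member was called against 40.2% of genes, namely Bcl2l1, which was higher (21.2%, with 19.0% lower), and 3 did not overlap (Bcl2l1, Mcl1 and Bad) against 34.2%. The obese count was 2 without the lean pre-therapy tumor 1, the obese pre-therapy tumor 1 or the obese ETS tumor 2. It was 3 without the lean ETS tumor 2 or the obese ETS tumor 3 or 4. In these fits 5618 to 6639 of all genes were called in obese tumors. With the obese ETS tumors 2 and 4 both left out, the count was 1, where 4812 of 16290 genes were called. DESeq2 called 4 members in obese tumors (Bcl2l1, Mcl1, Bcl2l11 and Bad), where it called 6959 of 16209 genes, a similar share. The lean count was 4 without the lean ETS tumor 2, where 5857 of 16296 genes were called. It was 7 with DESeq2, where 7415 of 16209 genes were called.

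A difference between hosts in the response to ETS was called for 5 of 9 members (Bax and Bbc3 more positive in lean tumors, against 6.35% of genes, and Bid, Bcl2l11 and Mcl1 more negative, against 10.1%), where 16.4% of genes were called. It was called for 3 without the lean pre-therapy tumor 4, where 1983 of 16251 genes were called. Before therapy, 6 of 9 members differed between hosts (Bax and Bbc3 higher in obese tumors, against 13.5% of genes, and Bid, Bcl2l11, Mcl1 and Bak1 lower, against 12.9%), where 26.4% of genes were called, and the same 6 did not overlap against 30.4%. After ETS, 0 of 9 members were called by edgeR's quasi-likelihood test with TMM and no replicate block. Of all tested genes 5.58% were called (3.28% higher and 2.3% lower in obese tumors). Among the members 0 were without overlap, against 13.2% of genes. Only Bax had an unadjusted p under 0.05 there, with 1 member of 9 so counted. It was lower in obese ETS tumors (log2 -0.40 ± 0.12, adjusted p = 0.0656), and was called by the exact test (adjusted p = 0.0372), by DESeq2 (adjusted p = 0.0153) and without the obese ETS tumor 1 (adjusted p = 0.0398). The quasi-likelihood test also called Bax with DESeq2's size factors in place of TMM (adjusted p = 0.0483) and with the replicate number as a block (adjusted p = 0.0409). These comparisons share tumors. The difference between the responses equals, by arithmetic, the host gap before therapy less the host gap after ETS: for Bbc3 1.40 less 0.13, for Bid -1.13 less -0.11, for Bcl2l11 -0.60 less 0.10, for Mcl1 -0.32 less 0.06 and for Bax 0.52 less -0.40. For each of these 5 members the pre-therapy gap was the larger term, and for Bax the terms were nearest in size and opposite in sign.

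The make-up of each class can be read within a tumor, where scaling between libraries plays no part. Mcl1 made up 71.9% to 74.7% of the summed TPM of the 3 anti-apoptotic genes in lean pre-therapy tumors and 54.5% to 61.5% after ETS. Bcl2l1 took 18.8% to 23.1% before and 33.0% to 41.6% after. Obese tumors shifted likewise, from 19.0% to 26.1% Bcl2l1 before therapy to 33.7% to 43.5% after ETS. Groups before and after ETS did not overlap for either gene in either host.

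Bax made up 49.2% to 52.6% of the summed effector TPM in lean pre-therapy tumors and 68.8% to 72.9% in lean ETS tumors. In obese tumors it made up 63.7% to 69.1% already before therapy and 66.3% to 68.1% after ETS. The ratio of Bax to Mcl1 was 1.42 ± 0.08 before and 3.72 ± 0.80 after ETS in lean tumors, against 2.55 ± 0.09 and 2.71 ± 0.42 in obese tumors (SD, n = 4). The ratio of Bax to Bcl2l1 ran differently. It was 4.91 ± 0.55 and 5.67 ± 0.44 in lean tumors, with overlap, and 8.09 ± 1.74 before against 3.90 ± 0.88 after ETS in obese tumors, without overlap.

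Within the BH3-only class, Bid made up 47.6% ± 6.52 of the summed TPM in lean pre-therapy tumors and 25.3% ± 4.17 in lean ETS tumors (SD, n = 4), against 27.4% ± 3.43 and 25.3% ± 3.38 in obese tumors. Bbc3 took 5.84% ± 0.91 before and 13.6% ± 3.54 after ETS in lean tumors, against 19.5% ± 2.71 and 16.1% ± 5.44 in the obese host. By group mean, Bad held the largest share in every group but the lean pre-therapy group, where Bid did.

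**Figure D3:**
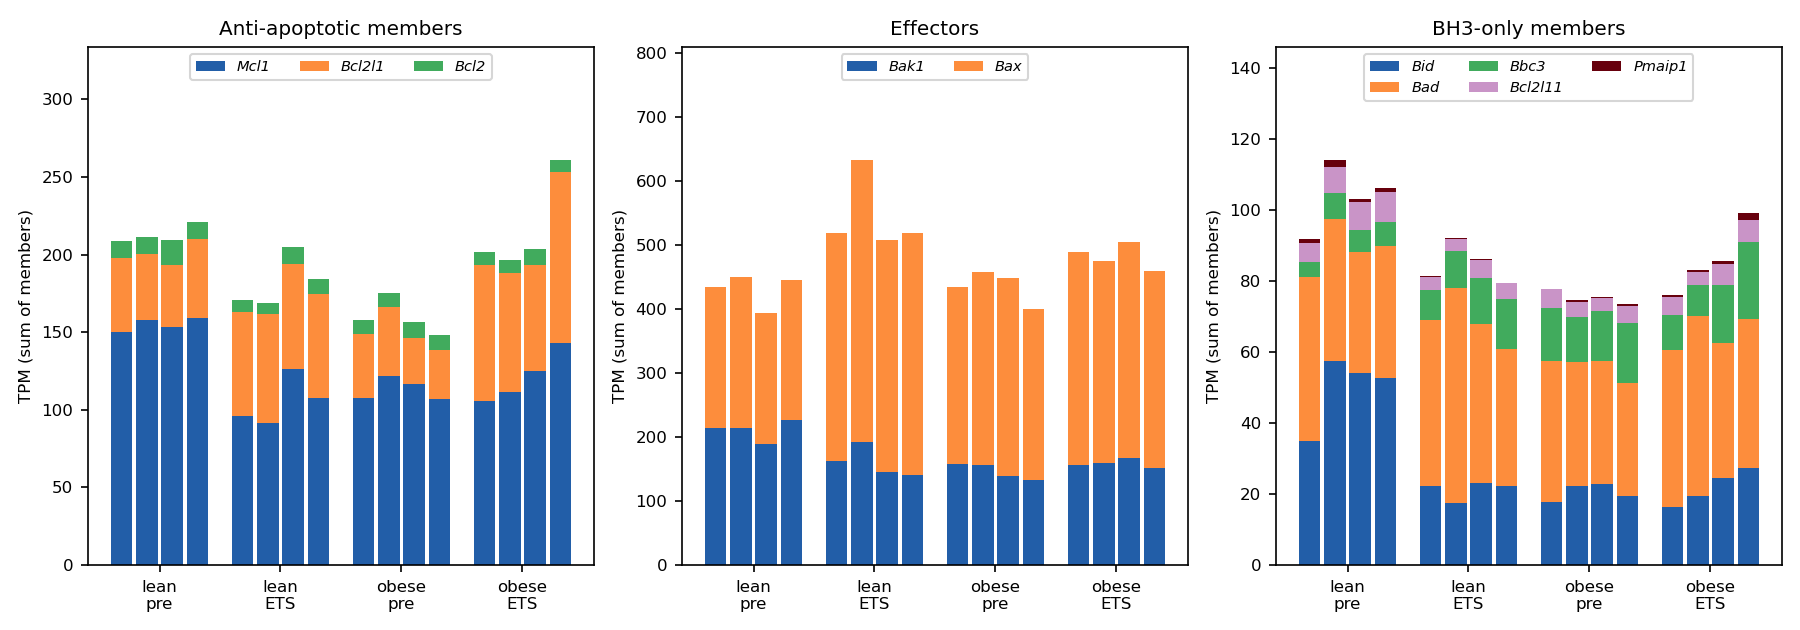
Stacked TPM (y axis, from 0) of the anti-apoptotic, effector and BH3-only members in each of the 16 tumors, 4 bars a group in replicate order. The Bcl2l1 segment is larger after ETS in both hosts, the Bax segment grows with ETS mainly in lean tumors, and the Bid segment is largest in the lean pre-therapy group.

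Of 15 other Bcl2 family genes, 9 were tested. Of all tested genes 43.8% were called with ETS in lean and 40.2% in obese tumors. The shares were 16.4% for the difference, 26.4% before therapy and 5.58% after ETS, here and for the lists below. With ETS in lean tumors 1 was higher (Bnip3, a hypoxia-linked BH3-like gene, 1.64-fold) and 2 were lower (Bcl2a1b, an anti-apoptotic gene, 3.88-fold, and Bcl2l12, 1.47-fold). In obese tumors Bcl2a1b (4.67-fold) and Bok (1.48-fold), an effector-like gene, were higher. The responses differed for Bcl2a1b, Bok and Bnip3l, a relative of Bnip3 that marks mitochondria for removal. Before therapy Bnip3 (2.29-fold) and Bnip3l (1.96-fold) were higher and Bcl2a1b 11.9-fold lower in obese tumors, and after ETS 0 of 9 were called. Bcl2a1b has near-identical copies (Bcl2a1a, Bcl2a1d), between which the counting could split reads, so its values are uncertain.

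Of 15 genes for later steps, all tested, 5 were higher and 6 lower with ETS in lean tumors, where 43.8% of genes were called. In obese tumors 1 was higher and 2 were lower, where 40.2% of genes were called. Birc5 (survivin, which also serves cell division) was lower in both, 1.60-fold and 1.78-fold. Endog, a mitochondrial nuclease, rose 2.01-fold in lean tumors, and Casp9, the initiator caspase, was 1.29-fold lower there. In obese tumors Birc3, an inhibitor of apoptosis, rose 1.99-fold and Aifm1, a mitochondrial flavoprotein, was 1.24-fold lower. Responses differed for 4 genes, with Birc3 (log2 -1.76 ± 0.33) and Casp9 (-0.49 ± 0.11) more negative in lean tumors and the membrane channel genes Vdac1 and Vdac3 (0.55 ± 0.17 for Vdac3) more positive. Before therapy 4 were higher in obese tumors, among them Endog (1.84-fold) and Vdac1 (1.58-fold), and 2 were lower, among them Birc3 (2.58-fold). After ETS 0 of 15 were called.

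Of 23 Trp53 response genes outside the family, 17 rose with ETS in each host, 0 fell and 6 did not pass the test. Over all tested genes 21.0% rose in lean and 21.2% in obese tumors. Over the 23 genes the median log2 changes were 0.84 and 0.86, against -0.01 and 0.01 over all tested genes. Cdkn1a, the cell cycle inhibitor p21, rose 10.9-fold in lean tumors, from 112 ± 38.7 to 1214 ± 188 CPM (SD, n = 4). In obese tumors it started at 520 ± 61.9 CPM and reached 1252 ± 73.6 CPM. Before therapy 10 of the 23 were higher and 2 lower in obese than in lean tumors, with Cdkn1a 4.65-fold and Zmat3 1.89-fold higher. The responses differed for 8, of which 7 were more positive in lean tumors. After ETS 1 of 23 differed (Plk3, 1.75-fold higher in obese tumors). Bax and Bbc3, which are not on this list, were higher in obese tumors before therapy too. Fas, a death receptor on the list, was lower there (log2 -2.63 ± 0.56) and rose with ETS in obese tumors (2.80 ± 0.56). It measured only 0.041, 0.558, 0.184 and 0.071 CPM in the obese pre-therapy tumors, so both of its changes rest on levels near the detection limit.

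Of 12 stress and Foxo regulators of BH3-only genes, 10 were tested. Over all tested genes 22.8% fell with ETS in lean and 19.0% in obese tumors. In lean tumors 1 rose with ETS (Foxo3, 1.51-fold) and 3 fell, among them Chac1 (3.43-fold) and Atf4 (2.81-fold). In obese tumors 5 fell, among them Asns (1.83-fold), Atf4 (2.46-fold) and Trp53 itself (1.15-fold). Foxo3 was 1.82-fold higher in obese than in lean tumors before therapy and its response differed between hosts (0.76 ± 0.25, adjusted p = 0.0455). After ETS Foxo4 alone was called, 1.43-fold lower in obese tumors.

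**Figure D4:**
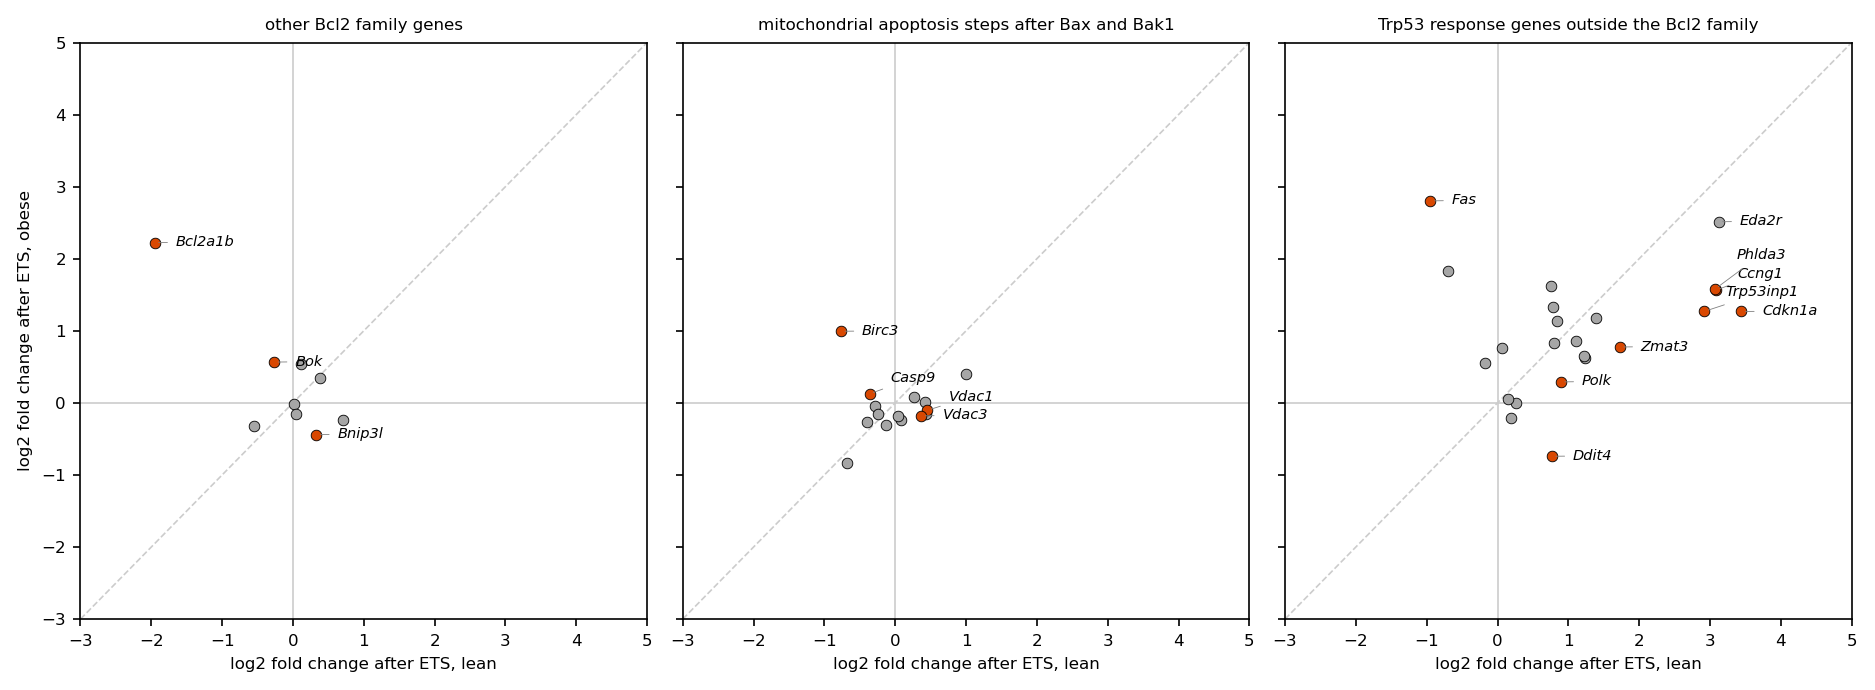
Log2 fold change with ETS in lean (x axis) against obese tumors (y axis) for tested genes of 3 lists, 1 point a gene; orange points had a called difference between the responses and the dashed line marks equal change. Bcl2a1b, Birc3 and Fas lie in the upper left quadrant, and Cdkn1a and Ccng1 lie far below the dashed line.

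Other transcripts moved beside the host differences of Bid, Bcl2l11, Mcl1, Bax and Bbc3. The summed level of 20 interferon response genes was 1388 to 2862 TPM in lean pre-therapy tumors, 300.03 to 417 in lean ETS, 128 to 169 in obese pre-therapy and 327 to 495 TPM in obese ETS tumors. All 20 were lower in obese than in lean tumors before therapy, 12 fell with ETS in the lean host, 17 rose in the obese host, and 0 differed after ETS. Macrophage markers (10 genes) summed to 562 to 1579 TPM in lean pre-therapy, 57.9 to 440.05 in lean ETS, 37.2 to 253 in obese pre-therapy and 404 to 1153 TPM in obese ETS tumors, and 8 of 10 were lower in obese tumors before therapy. T and NK cell markers (10 genes, 1 tested) summed to 37.5 to 68.8 TPM in lean pre-therapy tumors and 1.18 to 5.80 TPM elsewhere, with 2 of 10 at 0 in all obese pre-therapy tumors. Of 8 fibroblast markers, 5 fell with ETS in lean hosts and 8 rose in obese hosts, and after ETS 4 were higher in obese tumors, among them Col1a1 (7.49-fold) and Pdgfrb (2.91-fold). Of 7 endothelial markers, 1 fell with ETS in lean hosts and 5 rose in obese hosts, 3 were lower in obese tumors before therapy, and 0 differed after ETS. Of 6 adipocyte markers 2 were tested, Fabp4 (9.89-fold) and Lipe (2.84-fold), and both were higher in obese tumors after ETS. Of the macrophage markers 0 differed after ETS. Of 10 melanocyte markers, 6 were lower in obese tumors before therapy and 0 after ETS. The part of these transcripts in the results on the members was not tested.

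The transcripts most like each called member across the 16 tumors were searched among 13315 genes by the Pearson correlation of log2 CPM, given here without a test. They were Fam234a (0.974) and Ecm1 (0.971) for Bcl2l1, Commd3 (0.983) and Micos13 (0.973) for Bax, Lrch1 (0.957) and Tbc1d10c (0.957) for Bid, and Chchd5 (0.939) and Fignl2 (0.932) for Bbc3. For Bcl2l11 they were Sipa1 (0.902) and Hdac7 (0.890), for Bad Ap2s1 (0.982) and Chmp1a (0.975), for Bak1 Dhrs13 and Dbnl (0.914 each), and for Mcl1 Rnf180 (0.887) and Sema4a (0.886). Such correlations hold both the pattern of the 4 group means and the spread within groups, which were not separated. Among the members, Bid and Bbc3 ran most strongly against each other (-0.76), and Bax and Bad ran most closely together (0.79).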

How the data were processed

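RNA of 16 tumors had been sequenced from stranded poly(A) libraries. Per the paper's methods and the submitters' notes, the authors demultiplexed reads (bcl2fastq 2.20.0), trimmed them (Trimmomatic), aligned them to mm10 (HISAT2 2.1.0) and counted per gene (StringTie 2.1.3b), and deposited a read count, an FPKM and a TPM for each gene and tumor. FPKM was not used. Read counts were tested with edgeR 4.0.16 in R 4.3.3 (TMM, quasi-likelihood test, 1 model for the 4 groups, contrasts for each comparison). As in the authors' method, 29568 genes at 0 in at least 1 tumor were dropped, leaving 16209, and p-values were adjusted over all of them. Totals were 47199949 to 61655287 counts. The fit was tested on simulated data. Alternatives were DESeq2 1.42.0, its size factors, the exact test on counts plus 1, other filters, limma 3.58.1 on log2(TPM + 1) or log2(TPM + 0.1), the replicate number as a block, each tumor left out, and, chosen after seeing the marker sums, the obese ETS tumors 2 and 4 left out together.

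The members and gene lists were chosen with earlier results of these data known. Named genes were all 10 members, up to 3 called genes with the smallest adjusted p for each list and comparison, and for each called member the 2 genes of highest correlation (mean of at least 1 CPM). Genes outside that rule (Fas, Bcl2a1a, Bcl2a1d and Gpr137) were named after their values were seen. Gm45808, which has no values in the deposited counts, was named for its overlap with Bax. Motif letters were searched in RefSeq promoter windows. A gene of the list of later steps is not reported here.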

Additional observations from a re-analysis of the deposited data

Results flagged for a closer look

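In 3 of 40 sets of 4 tumors (10 members in 4 groups) a single tumor stood far from the other tumors of its group. Chance alone gives about 1 in 20 such sets. Bcl2 was low in the obese ETS tumor 4 (27.2 CPM, against 34.1 to 34.2 in the other obese ETS tumors), and Pmaip1 was high in the same tumor (2.78 CPM, against 0.824 to 1.05). Bcl2l11 was low in the obese ETS tumor 2 (10.6 CPM, against 14.2 to 14.9). Tumor 4 carried the highest fibroblast and neutrophil marker sums of its group (2172 and 83.3 TPM) and tumor 2 the highest keratinocyte and skeletal muscle sums (110.01 and 374 TPM). Their part in these values was not tested.

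The response to ETS differed between lean and obese tumors, by the interaction term of the fit, for 5 of 9 members, where 16.4% of genes were called. The lean less the obese log2 change was 0.92 for Bax, 1.27 for Bbc3, -1.01 for Bid, -0.71 for Bcl2l11 and -0.38 for Mcl1. In the fit without exclusion of genes with a 0, Pmaip1 was called too (-3.84), whereas Mcl1 was not (adjusted p = 0.0696). That fit called 5 of 10 members and 2654 of 28754 genes.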

How the results depend on the processing

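Each member's change was recomputed under 25 alternatives (24 for the difference between responses, 2 for most results of Pmaip1). Bcl2l1 in both hosts, Bax and Bid in lean tumors and in the difference between responses, Bbc3 in lean tumors, and Bax, Bbc3, Bid, Bcl2l11 and Mcl1 before therapy kept their calls and directions in all that were run. The cause of the changes that follow was not tested. The number of members called in obese tumors was 4 with DESeq2, where 6959 of 16209 genes were called. After ETS it was 1 with DESeq2's size factors, the exact test or DESeq2, where 1014, 1571 and 2054 genes were called. Leaving out 1 tumor at a time gave 4 to 7 members in lean tumors, 1 to 3 in obese tumors, 3 to 5 for the difference, 5 to 6 before therapy and 0 to 1 after ETS. In the same order, 5814 to 7523, 4898 to 6639, 1983 to 3096, 3102 to 4696 and 185 to 1340 of all genes were called. Without the obese pre-therapy tumor 1, 10 members were tested, and the 1 called after ETS was Pmaip1.

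The labels do not say whether equal replicate numbers pair the tumors. Same-numbered tumors of different groups had correlated deviations in 11 of 24 pairs (r above 0.1, range -0.11 to 0.45). Pairs with unlike numbers ranged from -0.58 to 0.51 and held the highest correlation, between the lean pre-therapy tumor 3 and the lean ETS tumor 4. Whether replicate numbers pair the tumors cannot be told from these values. With the replicate block, 2 members were called in obese tumors and 1 after ETS, where 7151 and 1683 of 16209 genes were called. Without the block 6517 and 904 genes were called. Bbc3 in obese tumors changed by -0.037 with the block.

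Changes of direction were among values that were not called. Bbc3 in obese tumors was -0.015 with no exclusion, -0.019 with filterByExpr, -0.13 and -0.14 on TPM, and -0.11 without obese ETS tumors 2 and 4, where Bcl2 was 0.025 and Mcl1 after ETS -0.010. Bak1 in lean tumors was 0.0042 with filterByExpr. On TPM, Bad in the difference was -0.042 and -0.044 with a pseudocount of 1 and 0.1, and Bid after ETS 0.024 with either. With 1 tumor left out, ranges that crossed 0 were -0.19 to 0.036 for Bcl2, -0.18 to 0.077 for Bak1 in lean tumors, -0.11 to 0.022 for Bcl2 and -0.24 to 0.15 for Bbc3 in obese tumors, -0.15 to 0.10 for Bcl2 and -0.029 to 0.33 for Bad in the difference, -0.20 to 0.037 for Bad before therapy, and -0.12 to 0.28 for Bbc3 after ETS.

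On log2(TPM + 1) the median of all genes shifted by -0.28 in lean tumors, -0.16 in the difference and 0.10 after ETS. Higher genes made up 15.7% of lean calls on TPM against 48.0% with TMM, 9.2% against 38.7% in the difference, 29.0% against 51.0% before therapy and 83.8% against 58.7% after ETS. Relative to the lean shift, Bax changed by 1.07, Bbc3 by 1.08, Bcl2l1 by 0.85, Bad by 0.53, Bid by -0.89, Bcl2l11 by -0.38, Mcl1 by -0.29 and Bak1 by -0.13. On TPM itself 8 members were called in lean tumors, 3 higher and 5 lower (Bcl2, Mcl1 and Bak1 added, Bad lost). On log2(TPM + 1), 8632 of 16209 genes were called there. Bak1 was also called in the difference (-0.52, adjusted p = 0.0143).

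After ETS, 904 genes were called, but 450 with no exclusion, 1571 by the exact test, 2054 by DESeq2, 1683 with the replicate block, 80 without obese ETS tumors 2 and 4, and 185 to 1340 with 1 tumor left out (185 to 483 with 1 lean ETS tumor left out, 243 without the obese ETS tumor 4). Counts were lowest for Pmaip1 (0 to 159 per tumor), and how far depth limits the other members was not tested.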
